A study of Mus musculus with 8 samples.

Results

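The genotype by stage difference of differences asks, gene by gene, whether the change of RNA level from embryonic stem cell (ESC) to neural progenitor (NPC) culture depended on Wdr68. It is the NPC minus ESC change of the Wdr68 knockout minus the NPC minus ESC change of wild type, on the scale of log2(FPKM + 1), where FPKM is a fragment count divided by transcript length and library size. It used 8 of the 8 libraries and 13318 of 24306 gene symbols, those that reached an FPKM of 1 in 2 or more libraries. The filter lets in a gene that is high in 1 group alone, so counts of tested list members describe those members and not the whole list. A difference of -1 means that the NPC to ESC ratio of FPKM + 1 was 2-fold smaller in the knockout than in wild type, and every difference below is on this scale.

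The wild type was the mouse ESC line E14, and the knockout an E14 derivative labelled Wdr68 KO; each was profiled as ESC and as NPC, with 2 libraries per group. ESC were kept in serum medium with leukemia inhibitory factor and inhibitors of MEK (PD0325901) and GSK3 (CHIR99021), on fibroblast feeders or on gelatin, and feeder-grown cells spent passages on gelatin before differentiation. The cells called NPC came from embryoid bodies exposed to retinoic acid, with no sorting named, so each NPC library may hold several cell types. The labels do not say how many knockout clones were used or whether the 2 libraries of a group came from separate cultures, so a p-value here is set against a spread between libraries that may be only technical. In such bulk RNA, fewer cells of a type and less RNA per cell cannot be told apart.

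WDR68, encoded by the gene listed as Dcaf7, is a scaffold protein that binds DYRK kinases and is also found with AUTS2 in a form of the Polycomb repressive complex PRC1 that is linked to gene activation. Retinoic acid enters the cell, is carried by CRABP proteins and binds RAR and RXR receptors on DNA, and in embryoid bodies it turns on Hox genes and neural genes while signals such as BMP and WNT favour mesoderm. In neural progenitors SOX and PAX factors keep cells cycling, proneural factors start neuron formation and NOTCH signalling holds neighbours back.

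The deposited tables imply 5985801 to 7931059 fragments per library, and 10870 to 12209 genes per library had an FPKM of at least 1. Dcaf7 had an FPKM of 12.4 and 14.2 in wild-type ESC, 27.2 and 29.6 in wild-type NPC, 2.8 and 2.26 in knockout ESC, and 8.36 and 8.99 in knockout NPC. Knockout libraries were below wild-type libraries at each stage, while fragments still mapped to the gene. Its level rose in both genotypes, and its difference of 0.42 ± 0.17 (SE) did not pass (adjusted p = 0.135). That difference was -0.03 after quantile normalization and -8.95 FPKM on unlogged values, where it passed in that opposite direction (adjusted p = 1.92e-02). Genes of chromosome 11, which carries Dcaf7, stood apart in knockout NPC. The median of chromosome 11 genes, each relative to its mean over libraries, minus that of the other genes was 0.147 and 0.17 in the 2 knockout NPC libraries and lay between -0.096 and -0.027 in the other 6 libraries. Values for genes of chromosome 11 below carry this shift. When it was removed from each library, 4 genes of this chromosome among those named by rule or picked later no longer passed (Gngt2, Hoxb1, Cbx2 and Suz12), Hoxb3 newly passed, and the rest kept their side of the threshold.

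Of the 13318 genes, 2237 (16.8%) had a difference that passed at an adjusted p under 0.05 in limma, 1120 higher in the knockout (8.41%) and 1117 lower (8.39%). With median-ratio scaling between libraries the counts were 815 higher and 1261 lower. With short RNA genes left out of the scale they were 1500 and 1117, and with an FPKM minimum of 5 they were 860 and 690, so the balance of the directions depended on the scaling and on the filter. Among the 1052 genes (7.9%) with a difference of at least 1 in either direction, 702 (5.27%) were lower and 350 (2.63%) higher. Large differences were more often negative still: 210 lower against 49 higher at a size of at least 2, and 67 against 10 at a size of at least 3. The median difference of all genes was 0.06, the median SE 0.18 and the smallest difference that passed 0.29 in size. At the edge of the threshold, Dach2 (-0.54) and Smyd2 (0.59) were just inside and Usp53 (0.75) just outside.

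The differences lay mainly at the NPC stage. For 2046 of the 2237 genes the gap between knockout and wild type was larger in NPC than in ESC, with a median size of 0.87 against 0.12. The difference is itself the NPC gap minus the ESC gap, so this split is partly set by the choice of genes. Its share over all tested genes was not computed. In ESC 33 of the 13318 genes (0.248%) differed between the genotypes at the same threshold, and 30 of them were among the 2237. In NPC 3648 of the 13318 genes differed, and 2008 of them were among the 2237. In all, 1025 of the 2237 (45.8%) passed whichever library was left out, as did 76.1% of the 1052 large ones. Of 180 genes named by rule, 174 passed and 137 passed whichever library was left out. Genes named below with a value passed in each of those 8 fits unless the text says otherwise. With a pseudocount of 0.1 in place of 1, 42 of the genes named by rule or picked later no longer passed, among them Fabp7, Neurog1, Cyp26a1, Hba-x, Hbb-y, Hbb-bh1, Hoxa6, Hoxb1, Hoxb2, Hoxb6, Hoxb7, Hoxb13, Hoxc6, Hoxd3, Tbx4, Tie1, Fli1, Apoa1, Gata5, Gata6, Rbp4, Dcn, Pdgfra, Inhbb, Notch1, Cbx2 and Suz12. On unlogged FPKM, 21 genes named by rule or picked later no longer passed, among them Cobl, Myl7, Six2, Klf5, Msx1, Egfl7, Apoa1, Lum and Suz12.

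**Figure D1:**
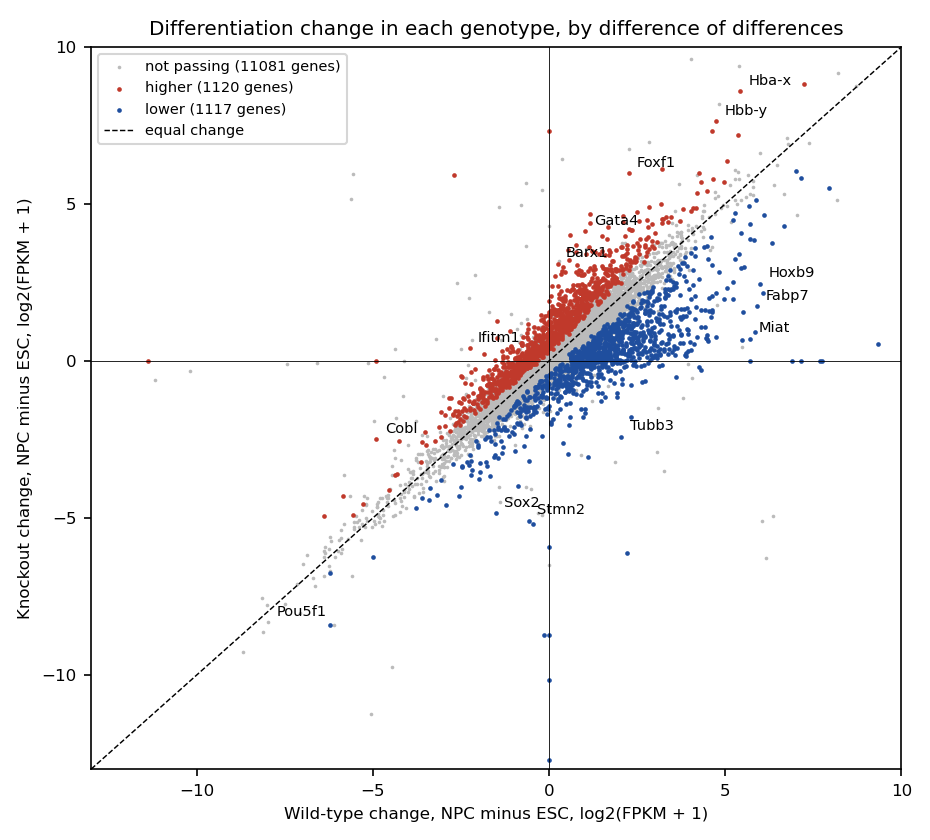
Each point is 1 of the 13318 tested genes, with its wild-type change (horizontal) and knockout change (vertical) from ESC to NPC in log2(FPKM + 1). Red genes had a higher and blue genes a lower difference (1120 and 1117), grey genes did not pass, and the dashed line marks equal change and isolated points far from it on an axis are mainly small RNA genes; the blue points below the line at the right are genes that rose in wild type and rose less or not at all in the knockout.

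Genes with a negative difference were for the most part genes that wild-type cells raised. Over all 13318 genes, 41.6% rose in wild type and 41.6% in the knockout, while 31.1% and 28.8% fell, at an adjusted p under 0.05. Of the 1117, 461 (41.3%) rose in both genotypes but less in the knockout, and 354 (31.7%) rose in wild type with no change called in the knockout. A further 91 (8.15%) rose in wild type and fell in the knockout, 130 (11.6%) fell in both and further in the knockout, and 81 (7.25%) fell in the knockout alone. Genes that rose in wild type with no call in the knockout had a median change of 1.43 in wild type and 0.09 in the knockout. Of the 1120 with a positive difference, 430 (38.4%) rose in both and more in the knockout, 204 (18.2%) rose in the knockout alone, and 238 (21.2%) fell in both but less in the knockout. The other positive genes fell in wild type, with no call in the knockout for 183 (16.3%) and a rise there for 65 (5.8%).

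Neural progenitor genes rose less in the knockout. Of 29 tested members (32 listed), 23 were lower and 0 higher, and the median difference was -1.59 against 0.06 for all genes. Over all 13318 genes 8.41% were higher and 8.39% lower, the shares that belong beside this and each later list count. Sox2, which maintains both stem cells and neural progenitors, had an FPKM of 92.9 and 83.3 in wild-type ESC and 77.5 and 77.5 in knockout ESC, and 30.4 and 29.9 in wild-type NPC against 1.15 and 2.47 in knockout NPC. It fell in both genotypes and further in the knockout, with a difference of -3.33 ± 0.28 (SE, adjusted p = 0.00061 in limma). The radial glia lipid-binding protein gene Fabp7 was at 1.15 and 0 in wild-type ESC and 0 in both knockout ESC libraries, then 89.4 and 84.9 in wild-type NPC against 2.78 and 2.02 in knockout NPC (difference -4.15 ± 0.46; -3.32 and not passing with a pseudocount of 0.1, adjusted p = 1.79e-01). Msx3, a homeobox gene of the dorsal neural tube, had the largest difference of the list, -4.93 ± 0.59. It was at 71.7 and 60.2 in wild-type NPC and at 0.248 and 2.55 in knockout NPC, with ESC values between 0.0893 and 0.154 in both genotypes. Pax6, a patterning factor of the neural tube, reached 14.3 and 14.4 in wild-type NPC and 2.27 and 3.1 in knockout NPC (difference -2.01 ± 0.2), and rose in both. The dorsal midline factor Zic1 differed by -3.23 ± 0.22.

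Not every progenitor gene followed. The intermediate filament gene Nes had 29.8 and 30.2 in wild-type NPC and 25.4 and 22.4 in knockout NPC, and its difference of -0.66 ± 0.16 (adjusted p = 0.031) passed in a fit without 1 library only when that was wild-type ESC library 1 (adjusted p from 0.033 to 0.1 over the 8 fits). N-cadherin (Cdh2) had a difference of -0.15 ± 0.15, which did not pass. Other members chosen after their values were seen had larger gaps: the interneuron progenitor factor Dbx1 differed by -2.91 ± 0.25, the ventral patterning factor Irx3 by -2.17 ± 0.25, the RNA-binding protein gene Msi1 by -1.81 ± 0.19 and the early neural factor Sox1 by -1.59 ± 0.23. Sox1 rose in wild type, from 1.14 and 0.839 to 2.66 and 3.15, and fell in the knockout, from 1.26 and 1.18 to 0.269 and 0.651.

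Of 12 tested proneural and neurogenic factors (16 listed), 12 were lower and 0 higher, with a median difference of -2.72. The summed FPKM of the 16 listed was low but not 0 in ESC, at 5.66 and 5.98 in wild type and 5.97 and 9.71 in the knockout. In NPC it was 143 and 150 in wild type and 13.1 and 17.4 in the knockout. Neurog1, which starts sensory and dorsal neuron formation, was at 16.3 and 18.1 in wild-type NPC and 0.707 and 1.32 in knockout NPC (difference -2.96 ± 0.29). Neurog2, its paralog, was at 6.03 and 5.94 against 0.0427 and 0.12 (-2.66 ± 0.15) and had no change called in the knockout. The factors next in the sequence moved the same way. Nhlh2 was at 23.1 and 21.4 in wild-type NPC and 0.369 and 1.45 in knockout NPC (-3.64 ± 0.35), Nhlh1 differed by -3.25 ± 0.16 and the neuroendocrine zinc finger gene Insm1 by -2.92 ± 0.3. Olig3, a factor of dorsal progenitors, was at 9.2 and 8.48 in wild-type NPC and listed at 0 in both knockout NPC libraries (-3.35 ± 0.17). Atoh1, which specifies the most dorsal interneurons, was likewise listed at 0 in both, against 3.88 and 2.85 (-2.31 ± 0.19). Neurog2 and Atoh1 were picked out after their values were seen.

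Of 19 tested genes of the NOTCH pathway, 10 were lower and 0 higher, with a median of -0.74. The ligand Dll1 was at 12 and 10.5 in wild-type NPC and 0.0801 and 0.275 in knockout NPC (difference -3.38 ± 0.18), with ESC values of 0.027 to 0.0331. Dll3, a ligand that acts within the producing cell, rose in wild type from 0.218 and 0.41 to 4.96 and 6.32 and fell in the knockout from 0.807 and 0.755 to 0 and 0.0822 (-3.11 ± 0.2). The target gene Hes5, a repressor that keeps progenitors undifferentiated, was listed at 0 in all 4 ESC libraries and at 14.1 and 19.3 in wild-type NPC against 0.402 and 0.527 in knockout NPC (-3.58 ± 0.22). Nrarp, a feedback inhibitor induced by NOTCH, differed by -3.01 ± 0.33, and Dner, a neuronal NOTCH-binding membrane protein, by -2.85 ± 0.2. Among members picked after their values were seen, the fringe enzymes Lfng and Mfng, which modify the receptor, differed by -2.29 ± 0.25 and -1.92 ± 0.19. The receptor Notch1 differed by -0.98 ± 0.22 (adjusted p = 0.026) and passed without a library only when that was knockout ESC library 2 or knockout NPC library 2 (adjusted p from 0.026 to 0.082). Hes1, a target that many tissues share, stayed between 18.9 and 24.4 in the 8 libraries, and its difference of -0.21 ± 0.17 did not pass.

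Of 35 tested genes of postmitotic neurons (35 listed), 30 were lower and 0 higher, with a median of -2. The summed FPKM of the list was 225 and 218 in wild-type ESC and 201 and 196 in knockout ESC. In NPC it was 833 and 863 in wild type and 98.2 and 108 in the knockout, so the sum went up in wild type and down in the knockout. Tubb3 and Stmn2, described next, held much of the sum in ESC. By member, 13 rose and 11 fell in the knockout, with a median change of 0.13, against 29 that rose and 3 that fell in wild type. Tubb3, the neuronal beta tubulin, was at 39.4 and 38.7 in wild-type ESC and 36.8 and 35 in knockout ESC. It rose to 162 and 168 in wild-type NPC and fell to 4.42 and 7.85 in knockout NPC, a difference of -4.46 ± 0.28 (adjusted p = 0.00024). Stmn2, a microtubule regulator of growth cones, was at 77.8 and 78.4 in wild-type ESC and 77.7 and 79.6 in knockout ESC, then 45.5 and 59.2 in wild-type NPC and 1.37 and 1.33 in knockout NPC (-4.5 ± 0.16). Both transcripts were thus already present in ESC of either genotype. Tagln3, a neuronal actin-binding protein gene, was at 124 and 121 in wild-type NPC and 3.23 and 7.56 in knockout NPC, from 1.34 to 2.81 in ESC (-4.82 ± 0.44). The neurofilament-related gene Ina rose in wild type and fell in the knockout (-4.12 ± 0.24), and Mapt, encoding tau and located on chromosome 11, fell in the knockout alone (-2 ± 0.22).

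The RNA-binding protein gene Elavl4, a marker of young neurons, was at 18.7 and 17.9 in wild-type NPC and 0.701 and 1.13 in knockout NPC (-3.67 ± 0.2). The 3 neuron genes that follow were picked after their values were seen, and each was below 1 FPKM in the 4 ESC libraries. Map2, encoding a dendritic microtubule protein, was at 48.3 and 44.1 in wild-type NPC against 3.14 and 3.64 in knockout NPC (-3.24 ± 0.18). Dcx, encoding doublecortin of migrating neurons, was at 22.5 and 24.6 against 1.39 and 2.23 (-3.19 ± 0.23). Elavl3 was at 23.1 and 24.4 against 0.554 and 1.02 (-3.6 ± 0.22).

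Of 15 tested homeobox genes of neuron subtypes (30 listed), 10 were lower and 2 higher, with a median of -1.3. Pou3f2, a factor of neuronal differentiation, was at 23.7 and 21.8 in wild-type NPC and 0.548 and 1.07 in knockout NPC (difference -3.79 ± 0.23). Factors of dorsal and intermediate spinal interneurons were lower as well: Lhx5 differed by -2.91 ± 0.17, Lhx1 by -2.79 ± 0.23, Lbx1 by -2.46 ± 0.23 and Pax2 by -2.45 ± 0.29. Lhx1 lies on chromosome 11. Of 23 tested genes of axon guidance and adhesion, 9 were lower and 3 higher, with a median of -0.19. The netrin receptor gene Dcc was at 9.46 and 8.69 in wild-type NPC and 0.182 and 0.35 in knockout NPC (-2.95 ± 0.17), and the axonal adhesion gene Cntn2 differed by -3.2 ± 0.2. Nrcam rose in wild type and fell in the knockout (-2.2 ± 0.16), while L1cam rose in wild type with no change called in the knockout (-1.8 ± 0.17). Of 6 tested glia genes, 1 was lower and 1 higher, and the lower was the glutamate transporter gene Slc1a2 (-2 ± 0.22).

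In rankings by size, genes needed a mean FPKM of at least 5 in some group, with the libraries of the highest group above those of the lowest, and small RNA genes, replication-dependent histone genes and predicted genes (those with clone-like names such as AI854517) were left out. The 15 most negative differences so ranked included noncoding, metabolic and cell cycle genes besides those of the lists. Miat, a long noncoding RNA of neural tissue, had the most negative value of this ranking, -5.01 ± 0.45 (adjusted p = 0.00085). It was at 0.477 and 0.307 in wild-type ESC, 0.24 and 0.235 in ESC of the knockout, 75.8 and 68.4 in wild-type NPC, and 0.374 and 1.99 in knockout NPC. Ckb, the brain creatine kinase, was at 164 and 179 in wild-type ESC and 206 and 227 in knockout ESC, then 134 and 118 in wild-type NPC and 5.67 and 4.17 in knockout NPC (-4.76 ± 0.19). It was therefore abundant in every group but 1. Fzd10, a WNT receptor gene, rose in wild type from 17.6 and 14.3 to 40.2 and 31.1 and fell in the knockout from 16.9 and 16.7 to 0.525 and 1.94 (-4.18 ± 0.41). Cdkn1c, an imprinted inhibitor of cyclin-dependent kinases, was at 95.4 and 101 in wild-type NPC and 2.68 and 3.36 in knockout NPC (-3.96 ± 0.21). The noncoding RNA Pantr1, beside the neural factor gene Pou3f3, was listed at 0 in the ESC libraries and at 73.6 and 60.6 against 3.02 and 4.01 in NPC (-3.92 ± 0.21). Igfbpl1 (-4.61 ± 0.35), the axon transport gene Fez1 (-4.45 ± 0.25), the axon guidance receptor gene Robo3 (-3.98 ± 0.3) and Dpysl4 (-3.86 ± 0.36) completed the 15 most negative, with 6 genes described above.

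**Figure D2:**
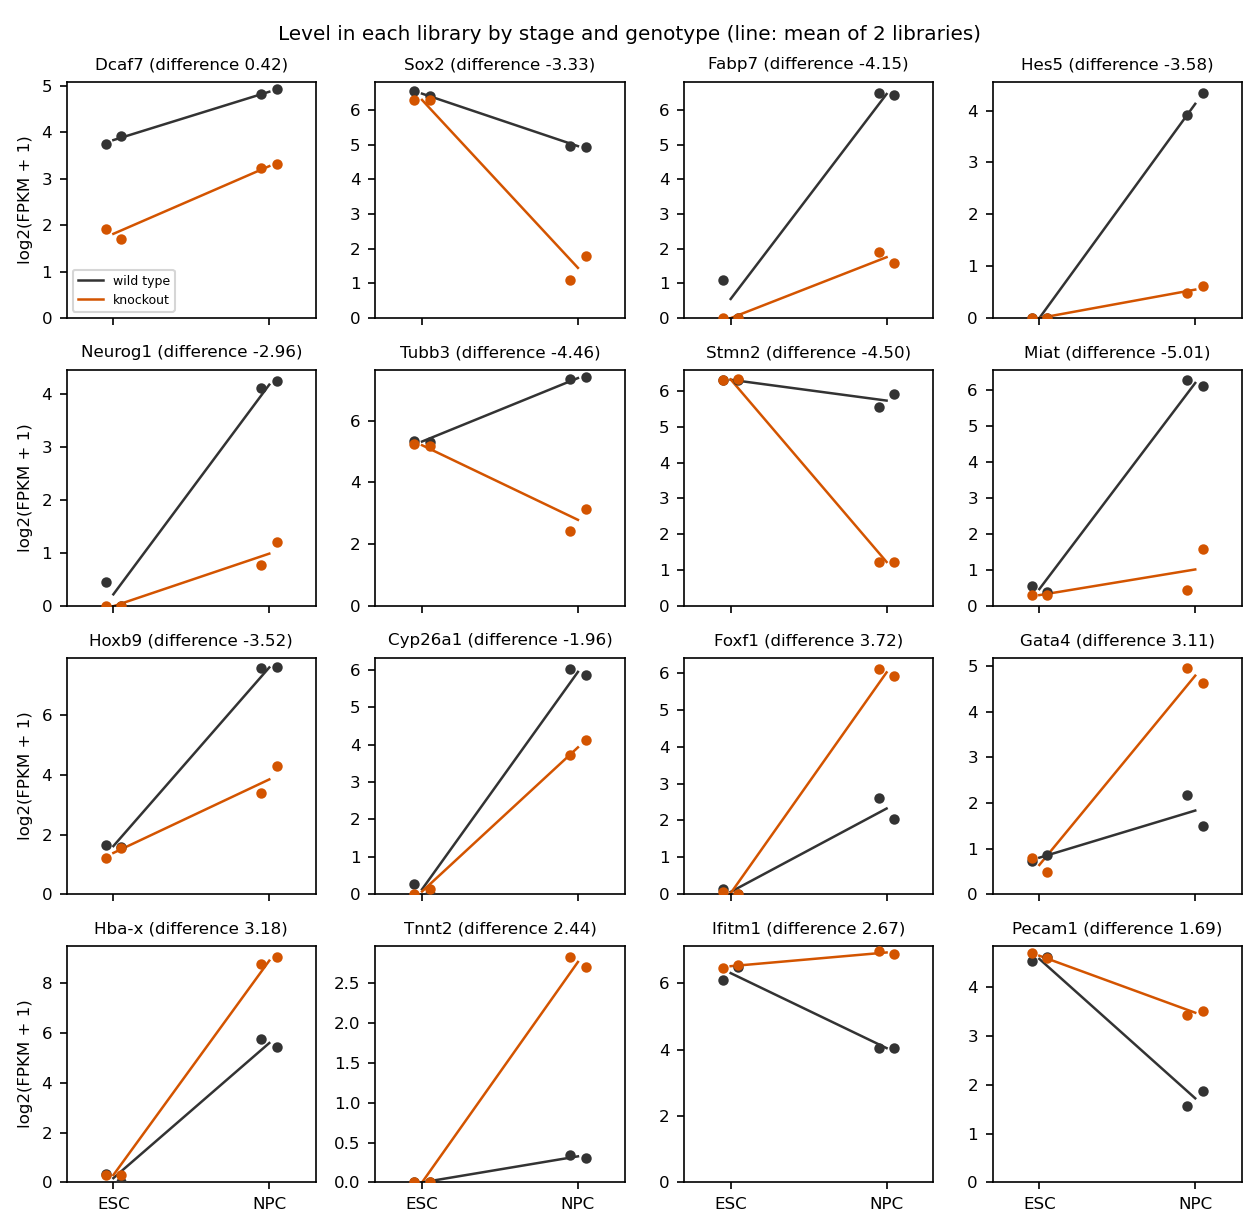
Levels of 16 genes in the 8 libraries as log2(FPKM + 1), by stage; points are libraries, lines join the means of 2 libraries, black is wild type and orange knockout, and each panel has its own vertical axis from 0. In ESC the genotypes lie close together for most of these genes but not Dcaf7, and in NPC they separate, downward in the knockout from Sox2 to Cyp26a1 and upward from Foxf1 to Pecam1.

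Most tested Hox genes rose in both genotypes. Of 15 tested members of paralog groups 1 to 5, which mark hindbrain and neck levels, 15 rose in wild type and 15 in the knockout, and 6 had a lower and 2 a higher difference (median -0.55). Of 16 tested members of groups 6 to 13, which mark trunk and tail levels, 13 rose and 3 fell in wild type, 11 rose and 3 fell in the knockout, and 10 were lower and 3 higher (median -1.33). The summed FPKM of groups 1 to 5 was 979 and 981 in wild-type NPC and 749 and 711 in knockout NPC, while that of groups 6 to 13 was 543 and 565 against 115 and 143. No test was made of the difference between the groups of paralogs.

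In the Hoxb cluster on chromosome 11 the difference was more negative at each step from group 4 to group 9. Hoxb9 was at 2.16 and 1.97 in wild-type ESC, 1.34 and 1.92 in ESC of the knockout, 192 and 194 in wild-type NPC and 9.6 and 18.6 in knockout NPC (difference -3.52 ± 0.37, adjusted p = 0.0015). Hoxb8 was at 100.0 and 109 in wild-type NPC and 18.8 and 24.2 in knockout NPC (-2.38 ± 0.19). Members picked after their values were seen continued the order: Hoxb7 differed by -1.99 ± 0.31, Hoxb6 by -1.46 ± 0.2, and Hoxb5 by -0.39 ± 0.16, which did not pass, as did not Hoxb4 at -0.24 ± 0.14. With a pseudocount of 0.1 Hoxb7 and Hoxb6 differed by -0.95 and -0.85 and did not pass. No test between these members was made. The order did not extend below group 4. Hoxb3 did not pass in the main fit, but with the chromosome 11 shift removed it differed by -0.91 and passed (adjusted p = 4.98e-02 in limma), where Hoxb4 was at -0.38. On unlogged values Hoxb3 differed by -51.2 FPKM and passed as well. At the ends of the cluster, Hoxb2 was lower (-0.98 ± 0.12) and Hoxb1 and Hoxb13 were higher. Hoxb13, the most tail-ward member, was at 3.7 and 3.06 in wild-type NPC and 26.8 and 28.4 in knockout NPC (2.25 ± 0.41); without wild-type NPC library 2 it did not pass, at an adjusted p that rounds to 0.05. Hoxb1 (0.74 ± 0.17) passed without a library only when that was wild-type NPC library 2 (adjusted p from 0.031 to 0.08), and with the chromosome 11 shift removed its difference was 0.6 and did not pass. Hoxb9, Hoxb8, Hoxb7 and Hoxb6 with the noncoding Hoxb5os form a run of 5 neighbouring tested genes that were lower, at 96132644 to 96168224 of chromosome 11 in mm9.

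The other clusters also held runs of neighbouring tested genes that were lower, beside genes that were not. Hoxa6, Mira, Hoxa7 and Hoxa9 formed 1 (median -2.37), and Hoxd3os1, Hoxd3, Hoxd4, Haglr and LOC102634401 another of 5 (median -2.5). Hoxc9, Hoxc8 and Hoxc6 formed a run with a median of -1.2, in which the calls of Hoxc8 and Hoxc9 did not hold in every fit with a library left out. In Hoxa, Hoxa6 was at 40.5 and 32.1 in wild-type NPC and 2.78 and 3.74 in knockout NPC (-3.01 ± 0.31) and Hoxa7 differed by -2.17 ± 0.24, whereas their neighbour Hoxa5 was at 153 and 156 against 188 and 162 (0.36 ± 0.32), which did not pass. Hoxd3 was at 51.8 and 48.8 in wild-type NPC and 5.45 and 9.07 in knockout NPC (-2.54 ± 0.29), and Hoxd4 at 54.1 and 51.5 against 7.31 and 7.52 (-2.5 ± 0.14). The tested Hoxd members of groups 6 to 13 were not lower: Hoxd8 did not pass, and Hoxd9 and Hoxd13 were higher. The calls of Hoxd9 and Hoxd13 did not hold in every fit with a library left out. Hoxc6 was at 40.3 and 41.1 against 9.67 and 9.34 (-2.05 ± 0.2), next to Hoxc5, at 37.6 and 39.6 against 50.7 and 53.7, whose higher difference (0.74 ± 0.14) had an adjusted p of 0.055 without knockout NPC library 2. Hoxa5, Hoxc5, Hoxc6, Hoxd8, Hoxd9, Hoxd13 and the runs were picked after their values were seen.

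**Figure D3:**
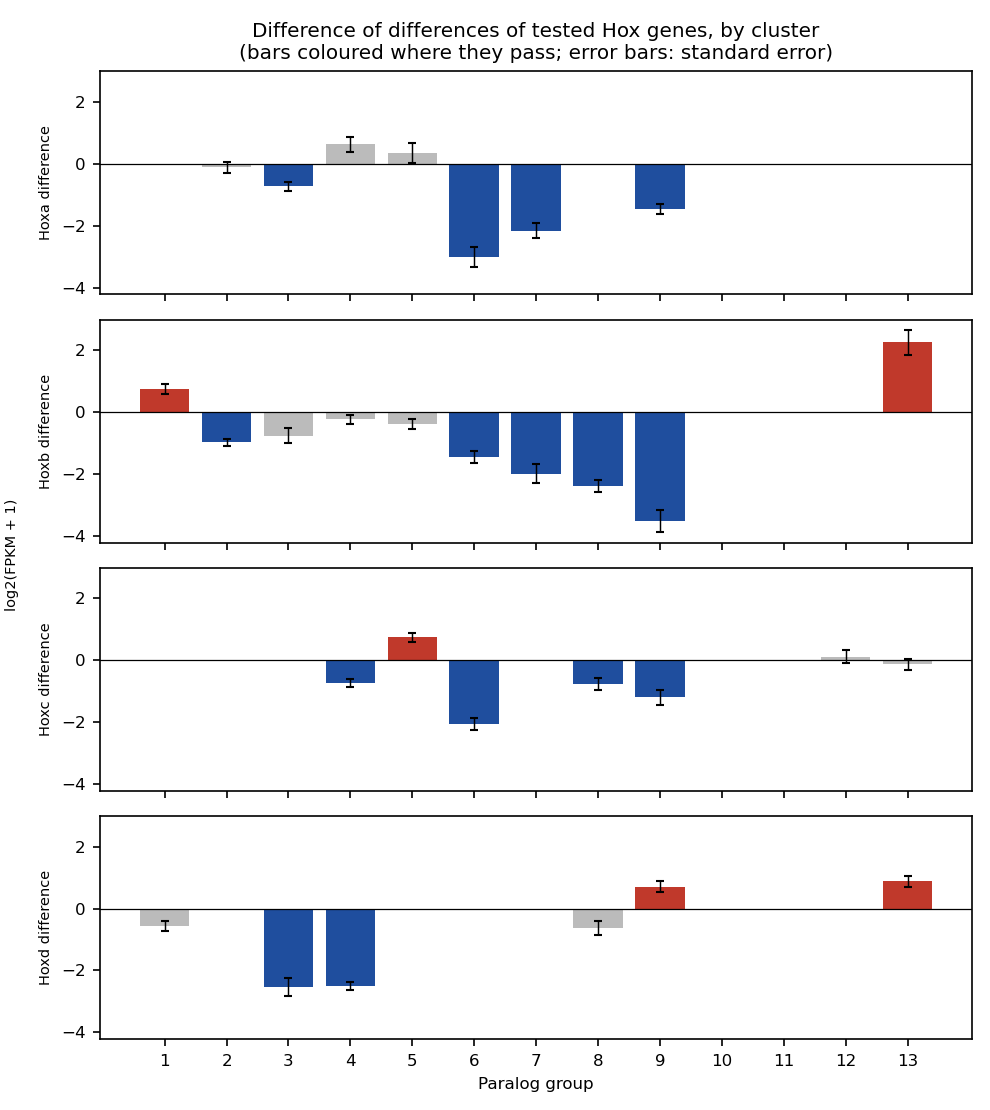
Difference (knockout change minus wild-type change, log2(FPKM + 1)) of tested Hox genes by cluster and paralog group, with standard errors; blue bars passed lower, red bars passed higher, grey bars did not pass, and a missing bar is a gene that was not tested or is not shown. Bars of groups 6 to 9 reach below -2 in Hoxa, Hoxb and Hoxc, down to -3.52 for Hoxb9, while Hoxb13 is at 2.25.

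Genes of the retinoic acid pathway were mixed: of 21 tested members (24 listed), 5 were lower and 3 higher, with a median of -0.17. The promoters of Cyp26a1, which encodes the retinoic acid hydroxylase, and Rarb, which encodes a receptor, are shown because they are textbook retinoic acid targets whose differences here were unlike. The 250 bases before the RefSeq start are given 5′ to 3′ on the gene's strand in build GRCm38.p6, with capitals at a direct repeat spaced by 5 bases (a half-site AGGTCA, or its variant AGTTCA, or GGGTCA in its place, or GGTTCA, then 5 bases of any kind, then any of these 4 half-sites, on either strand).
Cyp26a1, chr19:37697558-37697807, plus strand: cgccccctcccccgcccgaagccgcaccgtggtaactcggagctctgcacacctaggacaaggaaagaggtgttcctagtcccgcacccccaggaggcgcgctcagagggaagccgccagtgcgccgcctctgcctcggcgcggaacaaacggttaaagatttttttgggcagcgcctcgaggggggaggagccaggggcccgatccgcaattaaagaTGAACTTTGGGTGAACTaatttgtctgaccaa
Rarb, chr14:16575477-16575726, minus strand: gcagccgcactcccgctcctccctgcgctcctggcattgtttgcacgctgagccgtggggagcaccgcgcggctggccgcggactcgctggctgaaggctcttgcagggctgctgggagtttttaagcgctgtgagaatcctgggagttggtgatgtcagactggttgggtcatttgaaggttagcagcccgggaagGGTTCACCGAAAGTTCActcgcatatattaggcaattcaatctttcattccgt
The repeat lies 32 to 16 bases before the start of Cyp26a1, on the opposite strand, and 53 to 37 bases before that of Rarb. It is found in 29 of 32851 RefSeq promoter windows of this length (0.0883%), and in 2 of the 18 windows of list members that could be matched. Those 2 are the promoters shown. Among Hox genes of groups 1 to 5 it is found in 0 of 9 matched windows.

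Cyp26a1 was at 0.203 and 0 in wild-type ESC, 0 and 0.11 in ESC of the knockout, 64 and 57.3 in wild-type NPC and 12.3 and 16.4 in knockout NPC, a difference of -1.96 ± 0.24 (adjusted p = 0.0026), which was -1.82 and did not pass with a pseudocount of 0.1 (adjusted p = 1.85e-01). Rarb, picked after its values were seen, was at 63.4 and 60.3 in wild-type NPC and 44.3 and 42.5 in knockout NPC (-0.52 ± 0.16), which did not pass (adjusted p = 0.067) except without wild-type ESC library 1 (adjusted p = 0.044), with median-ratio scaling (-0.6, adjusted p = 4.54e-02), with quantile normalization (-0.65, adjusted p = 3.84e-02) or on unlogged FPKM (adjusted p = 2.42e-03). Both rose in both genotypes. The genes of intracellular carriers were lower: Crabp2 was at 214 and 235 in wild-type NPC and 30.8 and 47.6 in knockout NPC (-2.57 ± 0.32), and Crabp1 differed by -1.63 ± 0.3. Aldh1a2, the enzyme that makes retinoic acid in trunk mesoderm, went the other way, at 4.76 and 3.94 in wild-type NPC and 17.6 and 15.4 in knockout NPC (1.83 ± 0.23).

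Of 18 tested neural crest genes (20 listed), 9 were lower and 3 higher, with a median of -0.68. Pax3, a factor of dorsal neural tube and crest, was at 14 and 12.1 in wild-type NPC and 0.101 and 1.21 in knockout NPC (difference -3.16 ± 0.42). The endothelin receptor gene Ednrb was at 47.3 and 37.1 against 4.38 and 6.33 (-2.72 ± 0.26), and Tfap2b differed by -1.88 ± 0.22. The BMP-responsive homeobox genes Msx1 and Msx2 differed by -1.87 ± 0.3 and -1.68 ± 0.26. Of 13 formative and primed pluripotency genes tested, 5 were lower and 0 higher (median -0.5), and several of them also serve the neural plate. Zic2 rose in wild type from 10.7 and 10.8 to 15.7 and 13.4 and fell in the knockout from 7.81 and 6.64 to 0.249 and 0.437 (-3.01 ± 0.19), and Sox3 differed by -2.45 ± 0.27. Otx2 was an exception in its stage: it was listed at 0 in the 4 NPC libraries, and its difference of -1.44 ± 0.23 came from ESC, at 1.81 and 1.14 in wild type and 5.09 and 6.26 in the knockout.

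**Figure D4:**
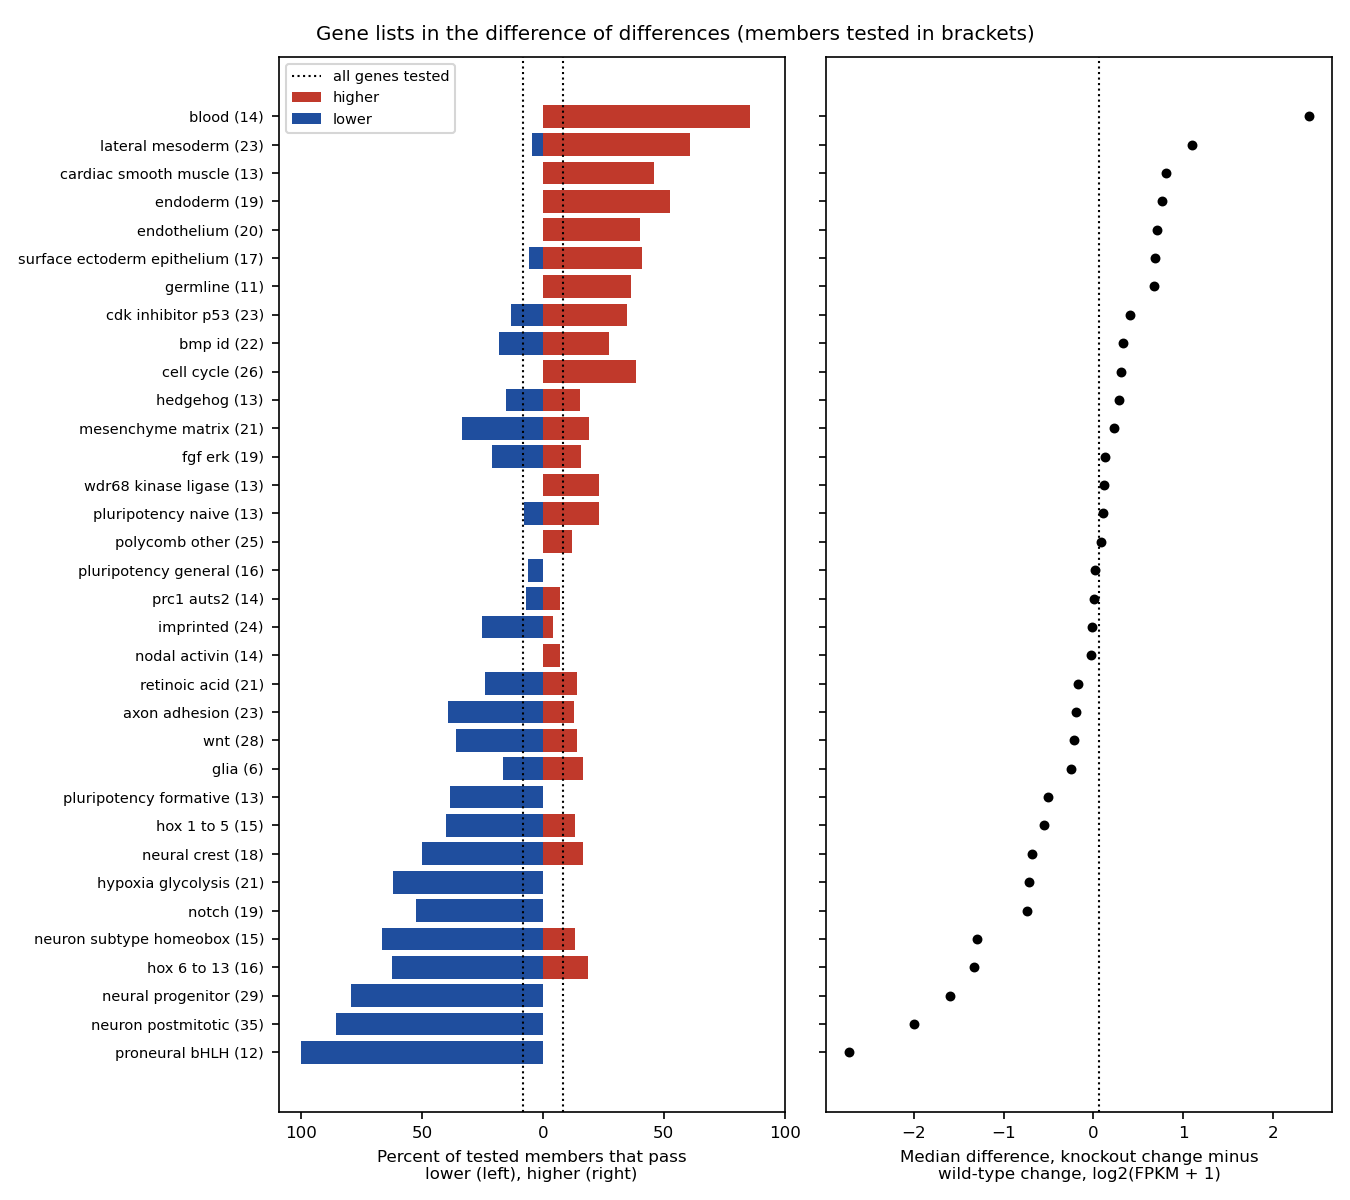
For each of 34 gene lists (tested members in brackets), the left panel gives the percentage of tested members with a lower (blue, to the left) or higher (red, to the right) difference and the right panel the median difference in log2(FPKM + 1); dotted lines mark all 13318 genes. Proneural factors (median -2.72), neurons (-2) and neural progenitors (-1.59) lie at the bottom and blood (2.4) and lateral mesoderm (1.1) at the top.

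Genes of mesoderm had for the most part a positive difference. Of 23 tested lateral mesoderm genes (28 listed), 14 were higher and 1 lower, with a median of 1.1. Foxf1, a factor of the mesoderm around the gut, was at 0.0961 and 0 in wild-type ESC, 0.0419 and 0 in ESC of the knockout, 5.1 and 3.11 in wild-type NPC and 67.8 and 59.5 in knockout NPC. Its difference of 3.72 ± 0.27 (adjusted p = 0.00039) was the most positive of that ranking, and it rose in both genotypes. Fendrr, the noncoding RNA transcribed from beside Foxf1, was at 1.82 and 1.01 in wild-type NPC and 26.1 and 25.7 in knockout NPC (3.51 ± 0.24). Gata4, a zinc finger factor of heart and gut, was at 3.5 and 1.82 against 30 and 23.5 (3.11 ± 0.34), from 0.409 to 0.819 in ESC. Tcf21, a factor of visceral mesoderm, differed by 2.34 ± 0.18, and the limb and lung factor Tbx4 by 1.71 ± 0.25. Tbx4 lies on chromosome 11.

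Of 13 tested genes of cardiac and smooth muscle (23 listed), 6 were higher and 0 lower (median 0.81). Tnnt2, the cardiac troponin T gene, was listed at 0 in the 4 ESC libraries, at 0.267 and 0.242 in wild-type NPC and at 6.1 and 5.52 in knockout NPC (difference 2.44 ± 0.15). Tnni1 was at 2.8 and 2.3 against 12.9 and 14.8 (2.18 ± 0.21), and Mef2c, a transcription factor of muscle and endothelium, differed by 1.43 ± 0.16. Myl7, the atrial myosin light chain, behaved differently: it was at 17.7 and 18.8 in wild-type ESC and 14 and 18.5 in knockout ESC, and 0 and 0 in wild-type NPC against 2.45 and 1.46 in knockout NPC, so its positive difference of 1.71 ± 0.27 was a smaller fall. Tnni1 and Tnnt2 belong to a run of 4 neighbouring tested genes that were higher, with Phlda3 and Lad1, at 137662662 to 137748845 of chromosome 1 in mm9.

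Of 14 tested blood genes (19 listed), 12 were higher and 0 lower, with a median of 2.4. The promoters of the embryonic globin genes Hba-x and Hbb-y are shown because their differences were the 2 largest of the list that passed; they are the 250 bases before the RefSeq start, as above, with capitals at the GATA factor motif AGATAA or TGATAA on either strand.
Hba-x, chr11:32276350-32276599, plus strand: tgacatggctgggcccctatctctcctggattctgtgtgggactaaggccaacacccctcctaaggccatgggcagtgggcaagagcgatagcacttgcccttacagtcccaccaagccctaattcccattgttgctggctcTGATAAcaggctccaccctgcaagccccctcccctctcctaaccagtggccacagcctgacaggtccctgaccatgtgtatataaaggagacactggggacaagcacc
Hbb-y, chr7:103853208-103853457, minus strand: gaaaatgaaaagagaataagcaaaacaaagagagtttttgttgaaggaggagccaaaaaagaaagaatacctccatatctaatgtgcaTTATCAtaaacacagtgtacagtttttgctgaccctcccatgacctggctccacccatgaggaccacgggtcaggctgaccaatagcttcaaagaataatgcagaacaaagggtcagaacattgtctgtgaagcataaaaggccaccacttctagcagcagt
The motif lies 108 to 103 bases before the start of Hba-x and 162 to 157 bases before that of Hbb-y, there on the opposite strand. A window of this length held either form in 16.6% of the 32851 promoters and in 8 of the 12 matched blood genes (Alas2, Hba-a1, Hba-a2, Hba-x, Hbb-y, Klf1, Ptprc and Tal1). Klf1 and Ptprc were not among the tested genes.

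Hba-x was at 0.27 and 0 in wild-type ESC, 0.235 and 0.22 in ESC of the knockout, 52.2 and 42.7 in wild-type NPC and 430 and 525 in knockout NPC (difference 3.18 ± 0.23, adjusted p = 0.00035). It lies on chromosome 11, and its difference with the shift of that chromosome removed was 3.04. With a pseudocount of 0.1 it was 2.56 and did not pass (adjusted p = 7.28e-02). Hbb-y was at 30.2 and 21.7 in wild-type NPC and 194 and 242 in knockout NPC (2.89 ± 0.26). The embryonic gene Hbb-bh1 was at 29.7 and 18.9 against 206 and 261 (2.68 ± 0.51), and its adjusted p reached 0.055 over the fits without wild-type NPC library 2 or knockout NPC library 2. The adult genes Hbb-b2 and Hbb-b1 differed by 2.71 ± 0.37 and 2.5 ± 0.25. These 4 Hbb genes are neighbours at 110961038 to 111001721 of chromosome 7 in mm9. They are near-identical copies in part, so fragments may have been divided between them. The alpha globin copies Hba-a1 and Hba-a2 show this: in wild-type NPC Hba-a1 was at 39.4 and 0.265 and Hba-a2 at 0.0159 and 42.5, and neither difference passed. Other blood genes were lower in level. Tal1, a factor that founds the blood lineage, was at 0.581 and 0.383 in wild-type NPC and 4.72 and 4.78 in knockout NPC (2.3 ± 0.2). Gata2 was at 5.9 and 6.06 against 21.5 and 19.3 (1.77 ± 0.24), the erythroid heme enzyme gene Alas2 differed by 1.64 ± 0.21 and the platelet integrin gene Itga2b by 1.63 ± 0.17; these 4 were picked after their values were seen. The summed FPKM of the blood list was 5.67 to 7.7 in ESC, 169 and 140 in wild-type NPC and 1180 and 1460 in knockout NPC.

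Of 20 tested endothelial genes (22 listed), 8 were higher and 0 lower (median 0.71). Pecam1, an adhesion molecule of endothelium and also of ESC, fell in wild type from 22.1 and 23.5 to 1.95 and 2.68 and in the knockout from 24.7 and 23.1 to 9.79 and 10.4 (difference 1.69 ± 0.17). Tek, the angiopoietin receptor, fell in wild type from 1.52 and 1.2 to 0.61 and 0.439 and rose in the knockout from 0.703 and 1 to 2.43 and 2.34 (1.51 ± 0.2). Tie1 and Fli1 differed by 1.34 ± 0.19 and 1 ± 0.16. Egfl7, a secreted factor of vessels, differed by 1.34 ± 0.26 and did not pass without wild-type NPC library 2 or without knockout ESC library 1 (adjusted p up to 0.06).

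Of 19 tested endoderm genes (25 listed), 10 were higher and 0 lower (median 0.76). Gata6, shared by endoderm and heart, was at 7.63 and 5.79 in wild-type NPC and 20.9 and 17.7 in knockout NPC (difference 1.46 ± 0.22), and Gata5 differed by 1.09 ± 0.19. The plasma protein genes Apoa1 (1.53 ± 0.35) and Rbp4 (1.06 ± 0.27) passed with all libraries, but their adjusted p reached 0.087 and 0.103 with a library left out. Apoa1 passed only without knockout NPC library 1 or 2, and Rbp4 only without knockout ESC library 2. Of 17 tested genes of surface ectoderm and epithelium (20 listed), 7 were higher and 1 lower (median 0.69). Epcam, an epithelial adhesion molecule, rose from 9.6 and 9.2 to 17 and 21.6 in wild type and from 6.61 and 7.87 to 36 and 40.4 in the knockout (1.3 ± 0.19). The lower gene was Tfap2a, a factor shared with neural crest (-1.59 ± 0.29), with an adjusted p of 0.051 without knockout ESC library 2.

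Mesenchyme and matrix genes, which feeder fibroblasts also express, split, with 4 of 21 tested (23 listed) higher and 7 lower (median 0.23). Pdgfra, a receptor of mesenchymal progenitors, was at 6.47 and 6.08 in wild-type NPC and 15.8 and 15.6 in knockout NPC (difference 1.15 ± 0.17). The collagen-binding proteoglycan genes Lum and Dcn were lower (-1.72 ± 0.29 and -1.22 ± 0.16), with NPC levels of 2.05 to 3.78 in wild type and 0.0861 to 0.81 in the knockout. The summed FPKM of the list in ESC was 155 to 164 in both genotypes.

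Of the 15 most positive genes, Grin2c, Sh3bgr, Sel1l3, Neurl3, Cxcl12, Barx1, Gpx2 and Ifitm1 belonged to no list. Cxcl12, a chemokine of stromal cells, was at 12.2 and 6.61 in wild-type NPC and 80.5 and 59.7 in knockout NPC (difference 2.89 ± 0.38). Sh3bgr was at 2.38 and 2.75 against 34 and 27.6 (3.24 ± 0.23), and the glutamate receptor subunit gene Grin2c, on chromosome 11, at 0.788 and 0.421 against 15.7 and 14.6 (3.43 ± 0.2). Barx1, a homeobox gene of stomach mesenchyme, had no change called in wild type, at 0.208 and 0.379 in NPC, and reached 9.15 and 8.01 in knockout NPC (2.85 ± 0.23). Sel1l3 and Neurl3 differed by 2.98 ± 0.19 and 2.93 ± 0.24. Six2 (2.58 ± 0.42), a factor of kidney and head mesenchyme, and Fxyd3 (2.53 ± 0.19) were further genes that rose in the knockout alone.

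A positive difference was in other genes a fall that wild type made and the knockout did not. Ifitm1, an interferon-inducible membrane protein gene, fell in wild type from 67.8 and 89.5 to 15.4 and 15.6 and rose in the knockout from 87.5 and 93 to 125 and 116 (difference 2.67 ± 0.17). Cobl, encoding an actin nucleator, fell in both, from 44.6 and 37.8 to 0.414 and 0.397 in wild type and from 35.4 and 32.3 to 5.77 and 4.63 in the knockout (2.41 ± 0.18). Arhgdib, a regulator of small GTPases in blood cells, fell in wild type from 16.5 and 19.5 to 4.77 and 3.82 with no change called in the knockout, at 13.6 and 14.7 in ESC and 16.4 and 16.7 in NPC (2.06 ± 0.17). The reverse case, a fall in the knockout alone, was led by the centromere protein gene Cenpv (-2.17 ± 0.23) on chromosome 11, by Mapt, by Pid1 (-1.94 ± 0.16) and by the glucose transporter gene Slc2a1.

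Tested genes of general and naive pluripotency all fell in both genotypes. Of 16 general genes, 1 (6.25%, against 16.8% of all genes) had a difference that passed, the lower one of Sox2 (median 0.02). Pou5f1 fell from 838 and 787 to 2.8 and 1.72 in wild type and from 841 and 859 to 1.95 and 1.4 in the knockout, and its difference of -0.34 ± 0.23 did not pass (adjusted p = 0.368). The difference of Nanog was 0.04 ± 0.28 and its sign turned with the scaling and the libraries used: it was -0.02 with median-ratio scaling. Without wild-type NPC library 1 the difference of Nanog was 0.39 and passed (adjusted p = 0.049). Of 13 naive genes, 3 were higher and 1 lower (30.8%, median 0.11). The calls of Klf4, Klf2 and Esrrb did not hold in most fits with a library left out. Klf5 kept more of its level in the knockout, falling to 5.77 and 6.41 against 2.54 and 2.38 in wild type (1.24 ± 0.19). Of 11 tested germline genes (18 listed), 4 were higher and 0 lower (median 0.67), while 8 fell in wild type and 8 in the knockout. The calls of Hormad1, Sycp3 and Ddx4 did not hold in most fits with a library left out. The fourth, the meiotic cohesin gene Rec8, rose from 2.77 and 2.5 to 12 and 10.3 in wild type and from 7.59 and 6.96 to 67.5 and 69.4 in the knockout (1.33 ± 0.14).

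WNT genes were divided by member, with 10 of 28 tested lower and 4 higher (median -0.21). Wnt1, a ligand of the dorsal midline, was listed at 0 in ESC and at 18.2 and 16.6 in wild-type NPC against 0.278 and 1.3 in knockout NPC (difference -3.42 ± 0.35). Wnt5a, a ligand of mesenchyme, was at 4.12 and 3.77 against 19.4 and 15.4 (1.93 ± 0.2), and the WNT enhancer Rspo3 at 1.17 and 1.75 against 12.2 and 9.92 (2.27 ± 0.23). The feedback inhibitor Nkd1 differed by -2.45 ± 0.17. In the hedgehog pathway, 2 of 13 tested were higher and 2 lower (median 0.29): the target and effector Gli1 differed by 1.89 ± 0.15 and the co-receptor Cdon by -1.19 ± 0.2. Of 22 tested genes of BMP signalling and ID factors, 6 were higher and 4 lower (median 0.33). The largest differences by size were the lower ones of Msx1 and Msx2, given above with the neural crest. Smad9 at 1.47 ± 0.18, the decoy receptor Bambi at 1.4 ± 0.2 and Gdf6 at 1.39 ± 0.16 were higher. Of 19 FGF and ERK genes, 3 were higher and 4 lower (median 0.13). Fgfr3, a receptor of neural progenitors, differed by -2.06 ± 0.35, the phosphatase gene Dusp4 by -1.98 ± 0.25 and Fgf10, a ligand of mesenchyme, by 1.36 ± 0.15. Of 14 nodal and activin genes, Inhbb alone passed (0.99 ± 0.18).

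Cell cycle genes were modestly higher: 10 of 26 tested passed higher and 0 lower (median 0.31). The replication helicase subunits led, with Mcm5 falling from 155 and 174 to 58.8 and 57.9 in wild type and from 154 and 155 to 97.1 and 90.8 in the knockout (difference 0.77 ± 0.1). Mcm4 and Mcm6 each differed by 0.66, with SE of 0.1 and 0.11, and the mitotic kinase gene Cdk1 by 0.57 ± 0.1. Of 23 kinase inhibitor and p53 target genes, 8 were higher and 3 lower (median 0.41). The largest difference by size was the lower one of Cdkn1c, described above. Gadd45g (lower) and Cdkn2a (higher) came next, and neither call held in every fit with a library left out. Perp (1.34 ± 0.18) and Trp53inp1 (1.01 ± 0.12) fell in wild type and rose in the knockout. Hypoxia and glycolysis genes were lower in 13 of 21 tested and higher in 0 (median -0.72). The glucose transporter gene Slc2a1 was at 69.3 and 94.8 in wild-type NPC and 21.2 and 27.1 in knockout NPC, from 62.9 to 74.7 in ESC (-1.85 ± 0.23). Bnip3, a mitochondrial gene induced by low oxygen, differed by -1.54 ± 0.21 and the glycolytic enzyme gene Pgk1 by -0.94 ± 0.13. Of 24 tested imprinted genes, 6 were lower and 1 higher (median -0.01). Grb10, on chromosome 11, was at 5.99 and 6.13 in wild-type ESC, 1.71 and 1.96 in ESC of the knockout, 25.4 and 22.4 in wild-type NPC and 2.15 and 1.33 in knockout NPC (-1.88 ± 0.23), so it was below wild type at both stages.

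The genes of complexes that WDR68 takes part in are set here beside the 16.8% of all tested genes that passed. Of 14 tested PRC1-AUTS2 genes, 1 was lower and 1 higher (14.3% in all, median 0.01). Auts2 rose from 1.71 and 1.3 to 14.1 and 14.7 in wild type and from 1.76 and 1.74 to 7.87 and 8.2 in the knockout (difference -0.9 ± 0.17, adjusted p = 0.013), and Rybp, a subunit of variant PRC1, fell less in the knockout (0.77 ± 0.11). The core subunit gene Rnf2 was between 48.9 and 61.9 in the 8 libraries, with a difference of 0.04 ± 0.09 that did not pass and turned to -0.04 with median-ratio scaling and -0.05 with quantile normalization. Pcgf3 (-0.43 ± 0.15) and Pcgf5 (1.15 ± 0.39) did not pass (adjusted p = 0.098 and 0.093), except that Pcgf3 passed without knockout ESC library 2 (adjusted p = 0.04) and Pcgf5 without wild-type NPC library 1 (adjusted p = 0.014). Of 25 other Polycomb genes, 3 were higher and 0 lower (12.0%, median 0.09); Cbx2 and Suz12, both on chromosome 11, were 2 of them and passed neither with that chromosome's shift removed (0.4 and 0.35) nor reliably with a library left out (adjusted p up to 0.126 and 0.132). The third, the histone-binding protein gene Rbbp7, fell in wild type and rose in the knockout (0.76 ± 0.09). Of 13 kinase and ubiquitin ligase partners, 3 were higher and 0 lower (23.1%, median 0.12), among them Map3k1 (1.56 ± 0.21) and Cul4b (0.68 ± 0.1).

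By chromosome, the median difference was largest on 11, at 0.158 over its 1104 tested genes, and 0.128 on X. In each of 4 consecutive spans of chromosome 11 the median difference was 0.15 to 0.17, the median knockout minus wild-type value 0.03 to 0.04 in ESC and 0.19 to 0.22 in NPC. Of the 1104 genes, 140 (12.7%) were higher and 86 (7.79%) lower, and with the shift removed from each library the counts were 77 (6.97%) and 104 (9.42%). Leaving chromosome 11 out of the fit left 977 higher and 1029 lower genes in the rest of the genome.

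**Figure D5:**
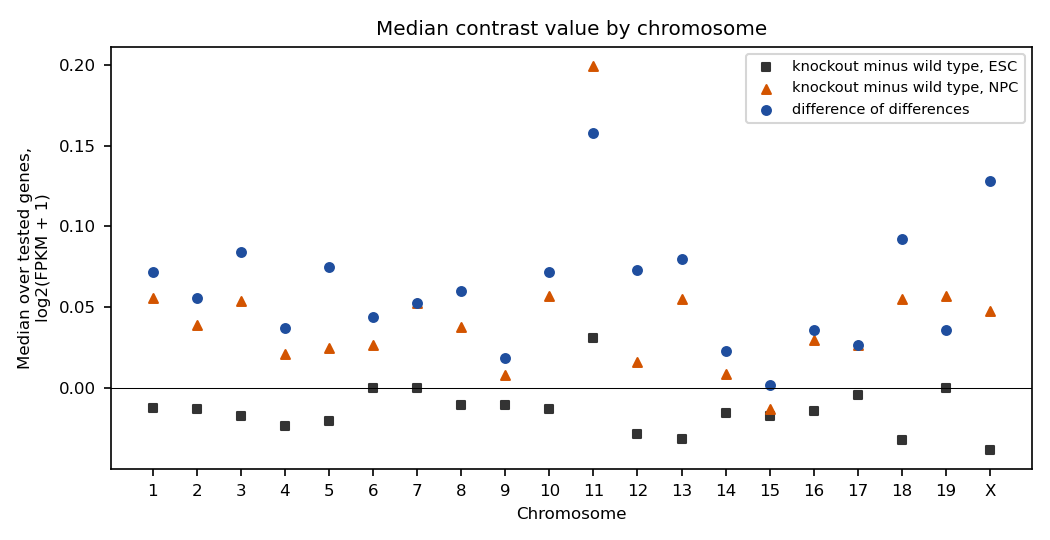
Median over the tested genes of each chromosome of the knockout minus wild-type value in ESC (squares) and NPC (triangles) and of the difference of differences (circles), in log2(FPKM + 1). Chromosome 11 is highest for the NPC value (0.199) and the difference (0.158).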

How the data were processed

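Poly(A) RNA of 8 libraries in 4 groups of 2 was measured. Per the submitters' processing notes, TopHat2 2.1.1, Cufflinks 2.2.1 and the mm9 genome were used, and the authors deposited gene FPKM with confidence bounds and no counts. FPKM were summed per symbol, and 12 symbols with a failed estimate were left out. Fragment numbers were inferred from the upper confidence bounds of the deposited FPKM. At FPKM near 1 they came to a median of 20.012 to 30.0 fragments per gene.

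Log2(FPKM + 1) of symbols that reached FPKM 1 in 2 or more libraries entered a linear model (limma 3.58.1, R 4.3.3) of 4 groups, with moderated variances that follow mean expression and 4 degrees of freedom left. The 2-sided test of the difference was adjusted by Benjamini-Hochberg over 13318 genes, with a threshold of 0.05, and was tested on simulated data. The pseudocount understates changes of low genes. Short RNA genes took 24.0% to 40.4% of summed FPKM, which sets the scale of the rest.

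The members and the 34 gene lists were chosen with earlier results of these data known. Genes were named by rule: the 15 most positive and 15 most negative as ranked in the text, 4 per pattern of change and up to 5 per list. All of these were taken from genes that passed. Fixed genes of the study were named whether they passed or not. Others are marked as picked after their values were seen. Where a listed gene lay in 2 lists it counted in both. Alternatives were other pseudocounts, filters, scalings and variance settings, a replicate block, each library left out, and, added after seeing the data, chromosome 11 left out or centred. A planned comparison of CpG content of promoters is not reported. The RefSeq promoter table matched 74.4% of tested genes and 73.0% of those that passed. Some genes of the lists are counted but not reported by name here.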

Additional observations from a re-analysis of the deposited data

Results flagged for a closer look

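The change from ESC to NPC differed between the genotypes, by the test of the difference itself, in 2237 genes. In 156 of them both changes passed and pointed in opposite directions. Genes named by rule that rose in wild type and fell in the knockout were Tubb3 (difference -4.46), Fzd10 (-4.18), Ina (-4.12), Npdc1 (-3.36), Dll3 (-3.11), Zic2 (-3.01), Nrcam (-2.2) and Igf2r (-1.62). Those that fell in wild type and rose in the knockout were Gpx2 (2.74), Ifitm1 (2.67), Cd55 (2.21), Syk (1.78), Tek (1.51), Egfl7 (1.34), Perp (1.34), Trp53inp1 (1.01) and Rbbp7 (0.76). Sox1 (-1.59) and Mfng (-1.92), picked after their values were seen, also rose in wild type and fell in the knockout. Groups of 2 libraries are too small for a test of single outlying libraries.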

How the results depend on the processing

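With all alternatives but the omission of libraries, 1550 to 2617 genes passed. An FPKM minimum of 5 tested fewer genes and left 690 lower genes and, at a size of at least 1, 638 (226 higher, 412 lower). The labels number the libraries of every group 1 and 2, but same-numbered libraries did not deviate together (correlations of -0.054 to 0.179 over 6 pairs of groups), and with a replicate block 2070 genes passed (993 higher, 1077 lower). With each library left out, which also removes a residual degree of freedom, 1283 to 1822 genes passed, 539 to 881 higher and 744 to 941 lower; at a size of at least 1 the ranges were 901 to 1070, 291 to 382 and 610 to 688. The count moved by over 1.5 times without wild-type ESC library 1 (1415) or 2 (1430), knockout ESC library 1 (1358) or 2 (1283), or knockout NPC library 1 (1414).

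Among genes named by rule or picked later, signs turned only in some whose difference did not pass with all libraries. These were Dcaf7 (-0.03 with quantile normalization, -8.95 on unlogged FPKM, where it passed), Rnf2 (-0.04 with median-ratio scaling, -0.05 with quantile normalization), Nanog (-0.02 with median-ratio scaling, -7.1e-05 without knockout NPC library 2, and -0.32 to 0.39 over the 8 omissions), Hoxa2 and Hoxb4 (0.1 and 0.31 with a pseudocount of 0.1) and Hoxc12 (-0.09 to 0.32 over the 8 omissions). Hoxb4 kept its sign on unlogged FPKM and passed there (-15.73). Of all 2237 genes that passed, 8 had the opposite sign on unlogged FPKM, 2 of them higher and 6 lower in the main fit. The cause was not tested. With a pseudocount of 0.1, 42 named genes no longer passed. The counts of at least 1 were not computed on unlogged FPKM. Depth limits genes near 1 FPKM, which rest on some 20.012 to 30.0 fragments.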

Other observations

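Neighbouring tested genes also passed together outside the Hox and globin clusters. Sox2, its overlapping noncoding gene Sox2ot and Atp11b were lower on chromosome 3 (median -2.27), and Pantr1, Pou3f3, 2900092D14Rik and Pantr2 on chromosome 1 (median -2.27). Lhx1, its noncoding neighbour Lhx1os and Mrm1 were lower on chromosome 11 (median -2.79), and the interferon-induced genes Ifitm2, Ifitm1 and Ifitm3 were higher on chromosome 7 (median 1.25). These runs were picked after their values were seen. Counting was not stated to use strand, so fragments of overlapping and antisense genes may not be told apart. Of the 2237 genes, 20 were small RNA genes, whose FPKM depends strongly on their short length. They held the most extreme values of all, from -12.72 for Snord65 to 11.39 for Snora61, and a poly(A) library is not made to measure them.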
